A study of Mus musculus with 6 samples.

Results

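The genes described here encode surface receptors by which myeloid cells sense microbes and tissue damage, and 10 were chosen by symbol. Tlr2, Tlr4 and Cd14 belong to Toll-like receptor sensing, Clec7a, Clec4d, Clec4e and Clec4n encode C-type lectin receptors, Fpr1 and Fpr2 encode formyl peptide receptors, and Trem1 encodes an amplifying receptor of the immunoglobulin family. Of these 10 genes, 9 had a row among the 32285 features of the expression tables. Clec7a, the gene for the beta-glucan receptor Dectin-1, matched no row by symbol or by identifier (ENSMUSG00000079293), and its expression was not analysed here. GENCODE vM21 lists it among 82 polymorphic pseudogenes, and 0 of those 82 had a row.

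The cells were marrow cells carrying CD11b, the integrin subunit encoded by Itgam that marks neutrophils, monocytes and macrophages. They were taken with magnetic beads from C57Bl/6 mice aged 2 months, for which the labels name no treatment, and were profiled by droplet single-cell RNA sequencing of transcript 3′ ends. There were 3 femur libraries (replicate 1 from female, replicates 2 and 3 from male mice) and 3 mandible libraries (all male), so sex was not balanced between the sites. The labels describe long-bone marrow from femurs and tibiae while the study's methods name femurs alone, and the mandible marrow was flushed together with the sockets left by the removed molars. Neither source used here says how many animals went into a library, so p-values measure only the spread between these libraries, which may be technical. The comparison between sites asked whether marrow myeloid cells of the jaw and the long bone held these receptor transcripts at the same level.

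The products of these genes work at the front of innate recognition. TLR2 senses bacterial lipoproteins together with TLR1 or TLR6, TLR4 senses lipopolysaccharide together with MD-2 (the product of Ly96), and CD14 hands ligand to both. Mincle (Clec4e), MCL (Clec4d) and Dectin-2 (Clec4n) bind microbial glycolipids and mannans and signal through the adaptor FcR gamma (Fcer1g), the kinase Syk and Card9. FPR1 and FPR2 are G protein-coupled receptors that guide neutrophils toward formylated bacterial and mitochondrial peptides, and TREM-1 couples to DAP12 (Tyrobp) and strengthens signals from other receptors.

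In GRCm38 (GENCODE vM21), Tlr2 lies on chromosome 3 (83836272 to 83841767, minus strand), Tlr4 on chromosome 4 (66827584 to 66930284, plus) and Trem1 on chromosome 17 (48232768 to 48246924, plus). The annotated span of Fpr2 overlaps that of Fpr3 on the same strand, so reads in the shared stretch cannot be assigned with certainty. Fpr3 itself was at 9.61 ± 0.972 CPM over all cells (SD, n = 6 libraries), where CPM is the number of unique molecular identifiers (UMIs) of a gene scaled to the same total in each library. A level in CPM is thus a share of the UMIs counted in a sum of cells, not a number per cell.

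The formyl peptide receptor genes are neighbours, and so are Clec4n, Clec4d and Clec4e. Fpr1 (17876471 to 17883940, minus) and Fpr2 (17887824 to 17893952, plus) lie on chromosome 17 and are transcribed away from each other, with 3884 bases between their starts. Clec4n (123229843 to 123247021, plus), Clec4d (123262111 to 123275265, plus) and Clec4e (123281789 to 123289870, minus) follow one another on chromosome 6, with 6523 bases between Clec4d and Clec4e. The promoters of both neighbouring pairs are shown because the levels of Fpr1 and Fpr2, and of Clec4d and Clec4e, ran partly in parallel over the clusters. Each line holds 150 bases before the RefSeq start in GRCm38.p6, 5′ to 3′ on the strand of the gene, and capitals mark matches on either strand to GAGGAA, the core bound by the myeloid factor PU.1, or TTGCNNAA, a C/EBP-type motif. The windows are chr6:123261957-123262106 (Clec4d, plus), chr6:123289872-123290021 (Clec4e, minus), chr17:17883940-17884089 (Fpr1, minus) and chr17:17887674-17887823 (Fpr2, plus).
Clec4d: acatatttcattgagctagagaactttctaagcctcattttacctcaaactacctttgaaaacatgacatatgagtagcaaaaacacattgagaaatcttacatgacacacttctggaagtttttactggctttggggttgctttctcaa
Clec4e: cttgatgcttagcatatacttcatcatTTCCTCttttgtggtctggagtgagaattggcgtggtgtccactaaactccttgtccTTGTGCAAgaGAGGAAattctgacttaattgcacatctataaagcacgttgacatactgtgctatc
Fpr1: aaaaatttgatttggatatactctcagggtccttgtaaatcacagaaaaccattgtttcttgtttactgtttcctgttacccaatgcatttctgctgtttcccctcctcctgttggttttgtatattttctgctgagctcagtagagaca
Fpr2: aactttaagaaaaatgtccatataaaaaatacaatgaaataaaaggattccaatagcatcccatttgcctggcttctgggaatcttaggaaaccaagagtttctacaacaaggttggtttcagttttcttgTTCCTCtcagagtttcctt
In the 250 bases before the start, GAGGAA was found at 2 positions for Clec4e, at 1 position each for Clec4d, Fpr2, Trem1 and Clec7a, and at none for Tlr2 and Fpr1, against 23.3% of all 32851 RefSeq windows of that length with at least 1 match. The match of Clec4d starts 240 bases before the start, outside the window shown. TTGCNNAA was found for Clec4e alone among these genes, against 9.56% of all windows. A match of letters is a description and not a binding site.

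The 69776 kept cells came with 7763 to 22797 cells, 82962160 to 244946998 UMIs and a median of 6924 to 9158 UMIs per cell in a library. Femur replicate 1 lost 18.5% of its barcodes to the cell filter, against 1.88% to 5.14% in the other libraries, and library pairs shared 15 to 70 cell barcodes, at most 0.651% of the smaller one. The 9 clusters carry the authors' numbers and were checked against markers. Elane was highest in cluster 4 (1058 CPM, precursors), Ltf in cluster 0 (13232 CPM, immature neutrophils), Mmp8 in cluster 3 (5420 CPM, gelatinase stage) and Csf3r in cluster 1 (2659 CPM, mature neutrophils), with Csf3r at 1724 CPM in cluster 2. Ccr2 marked cluster 5 (748 CPM, monocytes), Cd79a cluster 6 (1639 CPM, B cells) and Hbb-bs cluster 8 (75576 CPM), while cluster 7 held neutrophil markers at intermediate levels. Itgam was present in every cluster, from 198 CPM in cluster 6 to 1082 CPM in cluster 0. Because clusters were formed from these same cells, levels between clusters are described without a test.

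Transcripts of the lectins Clec4d and Clec4e were scarce in precursors and abundant in mature neutrophils. Clec4d, which encodes MCL, was at 42.4 ± 11.1 CPM in cluster 4 (SD, n = 6 libraries), 105 ± 21.4 in cluster 0, 452 ± 106 in cluster 3, 932 ± 152 in cluster 2 and 1192 ± 168 in cluster 1. The lowest, median and highest library were at 900, 1227 and 1384 CPM in cluster 1 and at 26.1, 43.1 and 55.0 CPM in cluster 4. Within a library the cluster 1 level was 20.5 to 53.1 times that of cluster 4. Clec4d in clusters 5, 8, 0 and 6 (126 ± 18.6, 116 ± 93.9, 105 ± 21.4 and 97.0 ± 39.5 CPM) did not differ between neighbours in order beyond the larger SD.

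Clec4e, the Mincle gene, had the same order of means over these 5 clusters. It was at 52.7 ± 12.5 CPM in cluster 4, 179 ± 45.9 in cluster 0, 451 ± 101 in cluster 3, 519 ± 105 in cluster 2 and 650 ± 138 in cluster 1. In its order of levels the steps from cluster 1 to 2, from 2 to 3 and from 3 to 7 were each within the larger SD, although cluster 1 was above cluster 2 in 6 of 6 libraries. Clec4n, the Dectin-2 gene, had its highest mean in cluster 1 and was under 10 CPM in clusters 4, 0, 3 and 2. It was at 1.25 ± 0.696 CPM in cluster 4, 3.72 ± 2.61 in cluster 0, 0.963 ± 0.562 in cluster 3, 5.35 ± 2.53 in cluster 2 and 47.8 ± 19.6 in cluster 1, where the libraries were at 25.1, 47.1 and 82.8 CPM (lowest, median and highest). For Clec4d and Clec4e, cluster 3 was above cluster 0 in 6 of 6 libraries each.

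Among the 9 clusters, Tlr2 and Tlr4 had their highest mean in cluster 1, while cells of cluster 5 labelled Macrophages held Tlr4 at 115 to 209 CPM per library, more than the mean of any cluster. Tlr2 was at 8.10 ± 1.84 CPM in cluster 4, 24.97 ± 2.20 in cluster 0, 78.3 ± 12.8 in cluster 3, 104 ± 21.5 in cluster 2, 104 ± 17.4 in cluster 1 and 58.8 ± 11.7 in cluster 5. Its levels in clusters 1 and 2 did not differ beyond their spread. Tlr4 was at 17.7 ± 2.67 CPM in cluster 4, 25.6 ± 3.05 in cluster 0, 43.6 ± 6.03 in cluster 3, 67.7 ± 17.98 in cluster 2, 88.7 ± 21.7 in cluster 1 and 38.5 ± 10.7 in cluster 5. Every step between neighbours in the order of Tlr4 was within the larger SD. Within a library the cluster 1 level of Tlr4 was 4.01 to 6.80 times that of cluster 4. Without scaling for depth, 30.5% of cluster 1 and 27.5% of cluster 4 cells held a UMI of Tlr4.

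Cd14, the co-receptor gene, was sparse and was not led by neutrophils alone. Its gene lies on chromosome 18 (36725067 to 36726798, minus strand). It was at 25.7 ± 6.14 CPM in cluster 5 and 25.3 ± 11.5 in cluster 1, which did not differ beyond their spread, and at 8.17 ± 3.77 in cluster 4 and 3.33 ± 2.54 in cluster 6. Every step in the order of the 9 clusters was within the larger SD. Mandible replicate 2 held the highest Cd14 level of the 6 libraries in clusters 0 to 5.

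Both formyl peptide receptor genes had their highest mean in cluster 3, the gelatinase stage. Fpr1 was at 31.5 ± 9.83 CPM in cluster 4, 161 ± 24.4 in cluster 0, 418 ± 53.2 in cluster 3, 380 ± 46.6 in cluster 2 and 319 ± 42.0 in cluster 1. Fpr2 was at 128 ± 30.8 CPM in cluster 4, 489 ± 65.7 in cluster 0, 574 ± 77.7 in cluster 3, 463 ± 54.4 in cluster 2 and 386 ± 72.3 in cluster 1. The genes differed in the early stages. Cluster 1 was above cluster 0 in 0 of 6 libraries for Fpr2, at 0.726 to 0.888 times its level, and in 6 of 6 for Fpr1, at 1.75 to 2.18 times. Fpr1 and Fpr2 were both lower in cluster 2 than in cluster 3 in all 6 libraries.

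Over clusters 4, 0, 3, 2 and 1, Trem1 had the same order of means as Clec4d and Clec4e. It was at 45.8 ± 7.37 CPM in cluster 4, 116 ± 31.4 in cluster 0, 206 ± 60.1 in cluster 3, 289 ± 89.0 in cluster 2 and 334 ± 102 in cluster 1. Its libraries differed widely within a site, with 482, 308 and 222 CPM in the femur libraries of cluster 1 and 404, 360 and 226 CPM in the mandible libraries.

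**Figure D1:**
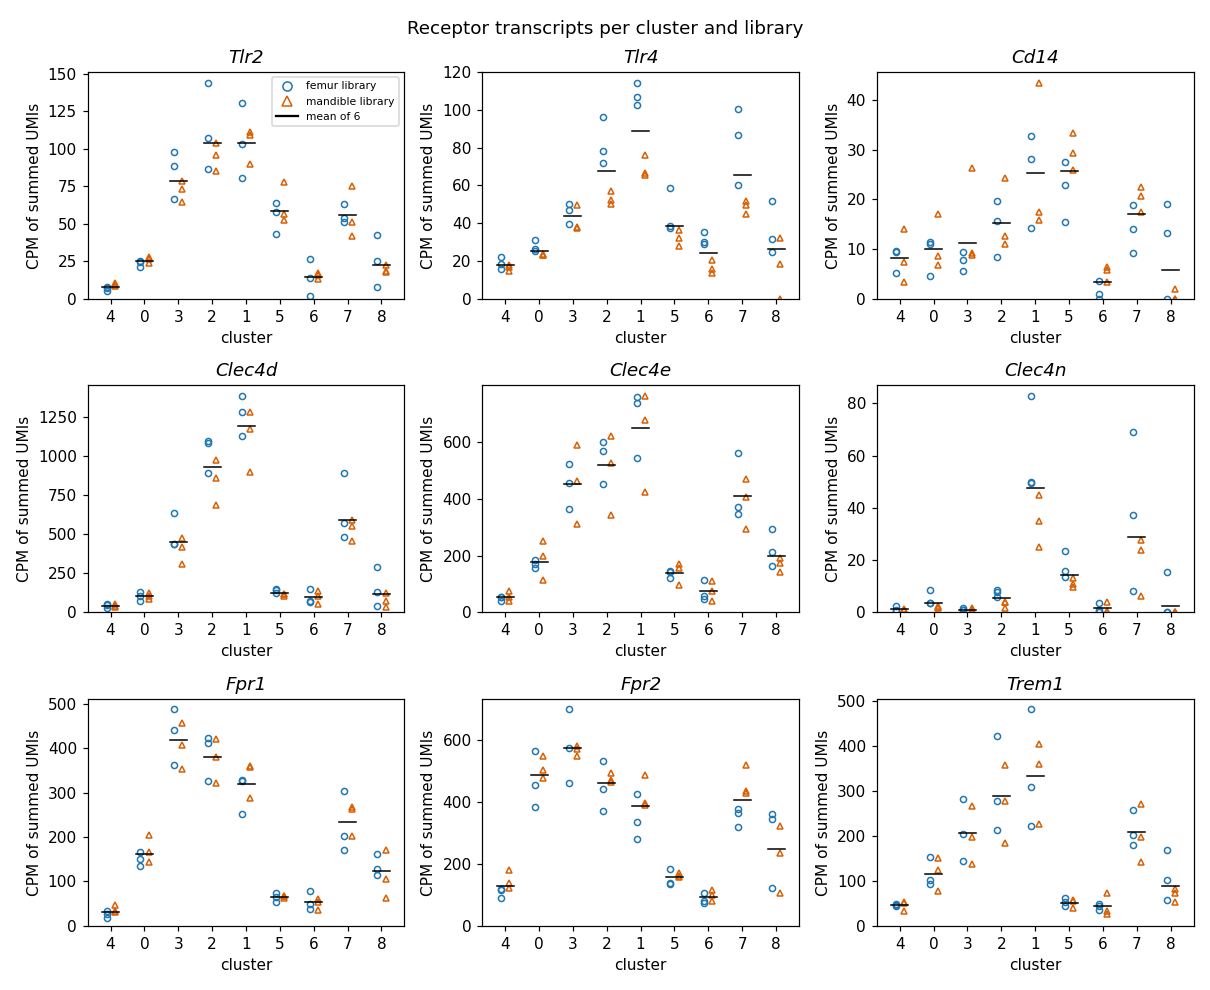
CPM of summed UMIs (vertical axes) of the 9 measured receptor genes in each cluster (horizontal axes), with 1 point per library, circles for femur and triangles for mandible, and the mean of the 6 libraries. Clec4d, Clec4e, Clec4n, Tlr2, Tlr4 and Trem1 have their highest mean in cluster 1, Fpr1 and Fpr2 in cluster 3 and Cd14 in cluster 5.

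Shares of cells with at least 1 UMI were compared at equal depth, because the median depth was 21561 UMIs per cell in cluster 4 and 4591 in cluster 1. Each cell was thinned to 1000 UMIs, and 88 shallower cells (66 femur, 22 mandible) were left out. Clec4d was found in 64.7% ± 5.05 of thinned cluster 1 cells and 3.39% ± 0.603 of cluster 4 cells, and in 95.03% and 24.9% without thinning. Clec4e was found in 41.3% ± 6.33 and 4.74% ± 1.11 of thinned cells of the same clusters (78.2% and 41.1% without thinning). The order of these clusters was thus the same by share as by level for both lectins, with and without thinning. Thinning takes out depth as CPM does, so thinned shares are not a separate check of the level. Without thinning, Cd14 was found in 8.72% of cluster 1 and 13.2% of cluster 4 cells. Fpr2 was found in 42.0% ± 4.19 and Fpr1 in 33.1% ± 2.86 of thinned cluster 3 cells (94.2% and 88.7% without thinning). At least 1 of the 9 genes was found in 92.6% ± 2.97 of thinned cluster 1 cells, 62.3% ± 4.27 of cluster 0, 37.4% ± 3.00 of cluster 5 and 24.5% ± 2.96 of cluster 4, and at least 3 in 34.7% ± 7.89 of cluster 1 and 0.536% ± 0.180 of cluster 4.

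B cells were used to gauge free RNA in the droplets, although B cells can transcribe Toll-like receptor genes themselves. Among 858 cells of cluster 6 labelled B cells (median 3894.5 UMIs), the thinned share was lowest for Cd14 (0.136% ± 0.332) and highest for Tlr4 (0.999% ± 0.915), with 0.858% ± 1.28 for Clec4d and 0.757% ± 0.853 for Fpr2. The mean cluster 1 shares of all 9 genes were above their mean B cell shares. Clec4n in cluster 3 (0.134% ± 0.0739), cluster 4 (0.144% ± 0.115) and cluster 0 (0.348% ± 0.197) was below its mean B cell share (0.436% ± 0.933), and so were Clec4n in clusters 6 and 8, Cd14 in cluster 6 and Tlr2 in cluster 4 (0.614% ± 0.271 against 0.878% ± 1.02). The SDs of these B cell shares were larger than their means. These low shares could thus not be told apart from the B cell level and are not read as expression. Cluster 6 consists mostly of these B cells, so its shares are not a separate comparison. With the B cells of all libraries pooled, the Clec4n share was 0.233%, below that of cluster 0. The Clec4n UMIs of cluster 0 lay in 533 cells at 2.29 per cell, with 76.5% in cells holding 2 or more. Whether they are expression or free RNA was not tested. Clec4n was concentrated in few cells of cluster 1, where 1822 of 15824 cells held its UMIs at 2.56 per cell, whereas Tlr4 was found in 5002 cells at 1.59 per cell.

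Cluster 5 held 7354 cells, of which the ImmGen reference labelled 50.8% Monocytes, 34.4% Neutrophils and 6.55% Macrophages. Tlr4, Cd14 and Clec4n were highest in the 482 cells labelled Macrophages. Tlr4 was at 115, 188 and 209 CPM there (lowest, median and highest library), 21.8, 27.5 and 32.1 in Monocytes and 28.6, 37.1 and 51.9 in Neutrophils. No Macrophages library overlapped the other labels for Tlr4. Cd14 was at 48.6, 62.9 and 103 CPM in Macrophages and 16.7, 26.6 and 45.0 in Monocytes, also without overlap. Clec4n was at 51.0, 73.3 and 161 CPM in Macrophages and 5.66, 10.4 and 15.7 in Monocytes. The macrophage marker list (C1qa, C1qb, C1qc, Adgre1, Mrc1 and Vcam1) summed to 10234 to 18530 CPM in the Macrophages label and to 134 to 511 CPM in Monocytes, so label and markers went together.

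Clec4d, Clec4e, Fpr1, Fpr2 and Trem1 were highest in the cells of cluster 5 labelled Neutrophils. In these 2529 cells labelled Neutrophils, Clec4d was at 247 ± 54.7 CPM, Fpr2 at 298 ± 40.7, Fpr1 at 129 ± 19.3 and Trem1 at 107 ± 35.5. In Monocytes they were at 34.6 ± 5.50, 48.9 ± 9.91, 10.4 ± 3.49 and 10.9 ± 4.13 CPM. The lowest Neutrophils library was above the highest Monocytes library for each of these genes. Clec4e was at 215 ± 48.5 CPM in Neutrophils, 93.9 ± 26.3 in Monocytes and 22.5 ± 14.0 in Macrophages, without overlap between any of them, whereas Clec4d was at 30.8 ± 11.8 CPM in Macrophages and overlapped Monocytes. Fpr1 was at 55.7 ± 9.26 CPM in Macrophages, above every Monocytes library. Tlr2 was nearly even, at 67.4 ± 12.8 CPM in Monocytes, 57.9 ± 14.6 in Macrophages and 56.5 ± 9.68 in Neutrophils. The neutrophil marker list summed to 28480 to 46982 CPM in Neutrophils, whose median depth was 15445 UMIs against 9328.5 in Monocytes and 3823.5 in Macrophages, and the part of droplets with more than 1 cell was not tested.

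**Figure D2:**
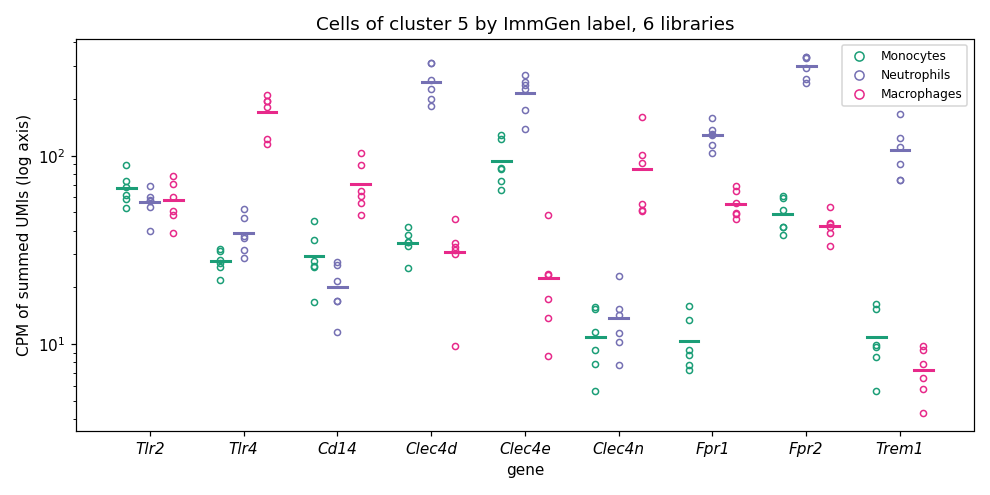
CPM of summed UMIs (log axis) of the 9 genes in cluster 5 cells labelled Monocytes, Neutrophils or Macrophages, with 1 point per library and the mean of 6. Tlr4, Cd14 and Clec4n are highest in Macrophages, Clec4d, Clec4e, Fpr1, Fpr2 and Trem1 in Neutrophils, and Tlr2 overlaps between all 3 labels.

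The authors' cell cycle calls split cluster 5 further. Tlr2 was at 67.1 ± 11.9 CPM in 6080 G1 cells, 24.6 ± 6.06 in 515 S cells and 34.7 ± 7.28 in 759 G2M cells. Clec4e was at 157 ± 33.9, 83.1 ± 20.3 and 79.9 ± 22.5 CPM in the same order. Both were thus higher in G1 than in the other phases by more than the spread between libraries. Every other receptor also had its highest mean in G1 there, such as Fpr2 at 182 ± 31.9, 96.8 ± 31.1 and 76.8 ± 20.3 CPM. The part of the label mix of each phase in these values was not tested. In cluster 4, Fpr2 was at 111 ± 34.0 CPM in S and 134 ± 29.5 in G2M, within the spread. It was at 211 ± 97.1 CPM in the 88 G1 cells of that cluster, as few as 6 in a library.

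Within single cells, neighbouring genes and some that are not neighbours were paired in thinned data. In cluster 1, Fpr2 was found in 31.5% ± 4.67 of cells with Fpr1 and 26.5% ± 4.32 of cells without it, higher in 6 of 6 libraries. The values were 34.3% ± 3.29 and 32.9% ± 3.33 in cluster 2, higher in 4 of 6, and 43.8% ± 4.69 and 41.2% ± 3.90 in cluster 3, higher in 6 of 6. Clec4e was found in 41.9% ± 6.26 of cluster 1 cells with Clec4d and 40.3% ± 6.27 of those without, higher in 6 of 6, in cluster 2 in 37.4% ± 5.11 and 34.3% ± 5.14, higher in 6 of 6, and in cluster 3 in 32.1% ± 5.00 and 34.0% ± 4.92, higher in 2 of 6. These differences were smaller than the SD between libraries, except that of the formyl peptide receptors in cluster 1. That SD is not the spread of the difference within a library, which only the counts of libraries reflect. In cluster 5, Clec4e was in 22.3% ± 7.11 of cells with Clec4d and 9.78% ± 2.17 of cells without, higher in 6 of 6. Within its Monocytes label alone the values were 6.22% ± 6.07 and 7.85% ± 2.81, higher in 2 of 6, and within its Neutrophils label 27.5% ± 9.19 and 17.4% ± 2.93, higher in 5 of 6. As few as 14 Monocytes and 37 Neutrophils with Clec4d stood behind these values in a library. Fpr2 was found in 24.2% ± 6.67 of cluster 5 cells with Fpr1 and 9.65% ± 1.68 of those without, higher in 6 of 6. By label the values were 19.9% ± 17.2 and 3.85% ± 0.750 in Monocytes, higher in 5 of 6 with as few as 4 cells with Fpr1 in a library, and 27.6% ± 7.47 and 23.3% ± 2.74 in Neutrophils, higher in 4 of 6. Clec4n was found in 3.03% ± 1.62 of the Neutrophils with Clec4d and 0.909% ± 0.844 of those without, higher in 6 of 6. This pair was higher in 4 of 6 in cluster 1 (4.02% ± 1.89 and 3.69% ± 1.60), 5 in cluster 2, 2 in cluster 3 and 1 in Monocytes. Of pairs that are not neighbours, Trem1 was in 28.7% ± 6.45 of cluster 1 cells with Clec4e and 26.5% ± 6.13 without, higher in 5 of 6. This pair was higher in 4 of 6 in cluster 2, 2 in cluster 3, 3 in Monocytes and 4 in Neutrophils. Tlr4 was in 6.23% ± 1.79 of cluster 3 cells with Tlr2 and 3.91% ± 0.826 without, higher in 6 of 6. For Tlr2 and Tlr4 it was 4 of 6 in cluster 1 and 3 of 6 in cluster 2. Cd14 was in 3.82% ± 1.68 of cluster 1 cells with Tlr4 and 2.38% ± 1.01 without, higher in 6 of 6, but in cluster 3 higher in 1 of 6.

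Over the 54 sums of 9 clusters by 6 libraries, each receptor was correlated with 9943 genes on log2(CPM + 1), as a description, since the sums share clusters, libraries and depth. Fpr1 was most like Mmp9, the gelatinase B gene (r = 0.981), Dhrs9 (0.974) and Bmx (0.972). Fpr2 was most like Mmp25 (0.948), a membrane metalloproteinase gene, Vasp (0.942) and Ceacam10 (0.932). Clec4d was most like Sfxn5 (0.975), Srgn, the serglycin gene (0.970), and Gm16556 (0.969). Clec4e was most like Dhrs9 (0.969), Slc7a11, a cystine transporter gene (0.964), and Atg2a (0.959). Trem1 was most like Antxr2 (0.970), Lilr4b (0.964) and Hdc, the histidine decarboxylase gene (0.962).

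Tlr2 was most like Pira2 (0.958), Tlr13, a sensor of bacterial ribosomal RNA (0.954), and Hacd4 (0.941). Tlr4 was most like Coq10b (0.932), Il10rb, a chain of the interleukin 10 receptor (0.920), and Tdrd7 (0.907). Clec4n was most like Gm17749 (0.899), Macrod2 (0.896) and Soat2 (0.873). Cd14 had lower values, with Casp4, a non-canonical inflammasome caspase gene (0.795), Atp6v1a (0.759) and Pgghg (0.754). Among the receptors themselves, r was 0.949 for Clec4e and Fpr1, 0.914 for Clec4d and Clec4e, 0.895 for Fpr1 and Fpr2 and 0.313 for Clec4n and Fpr1.

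For the comparison between sites, UMIs were summed per library in each cluster, and mandible was tested against femur with the quasi-likelihood test of edgeR over all genes that passed a low-count filter. None of the receptors tested passed a false discovery rate of 0.05 in any of the 9 clusters, in all cells or in the 3 labels of cluster 5. The same test called 0.0163% of all tested genes in cluster 0, 0.0842% in cluster 1, 0.0416% in cluster 2, 0.0108% in cluster 3, 0.0245% in cluster 4, 0% in cluster 5, 0% in cluster 6, 0.0842% in cluster 7, 0% in cluster 8 and 0% over all cells, and 0.0445% in Macrophages, 0.0968% in Monocytes and 0.0603% in Neutrophils of cluster 5. Where edgeR called 0 genes, 979 genes in cluster 5, 330 in cluster 6, 28 in cluster 8 and 1535 over all cells had an unadjusted p under 0.05, and DESeq2 called 77, 0, 2 and 305. Receptors with an unadjusted p under 0.05 numbered 1 of 9 in cluster 0, 3 of 9 in cluster 1, 2 of 9 in cluster 2, 0 of 8 in cluster 3, 2 of 9 in cluster 4, 3 of 9 in cluster 5, 1 of 7 in cluster 6, 2 of 9 in cluster 7, 0 of 5 in cluster 8 and 2 of 9 over all cells. Of all tested genes, 6.81% had such a p in cluster 0, 13.6% in cluster 1, 12.2% in cluster 2, 4.38% in cluster 3, 13% in cluster 4, 7.11% in cluster 5, 4.04% in cluster 6, 5.32% in cluster 7, 1.1% in cluster 8 and 9.37% over all cells. DESeq2 called Tlr4 and Clec4n over all cells (adjusted p = 0.0401 and 0.0189), where it called 1.68% of the genes it tested, and no receptor in a single cluster or label. The filter left untested Clec4n in cluster 3, Cd14 and Clec4n in cluster 6, Tlr2, Tlr4, Cd14 and Clec4n in cluster 8, and Trem1 in Macrophages. In sums over cells, fewer expressing cells and less RNA per cell cannot be told apart.

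Genes whose 3 femur and 3 mandible libraries did not overlap were frequent among all genes. They made up 11.1% of tested genes in cluster 0, 21.8% in cluster 1, 14.9% in cluster 2, 7.71% in cluster 3, 16% in cluster 4, 11.6% in cluster 5, 9.24% in cluster 6, 10.7% in cluster 7, 4.6% in cluster 8 and 10.1% over all cells, and 14% in Macrophages, 17.8% in Monocytes and 8.36% in Neutrophils of cluster 5. Receptors without overlap numbered 2 of 9 in clusters 0, 1, 2, 4 and 7 and over all cells, 0 of 8 in cluster 3, 3 of 9 in cluster 5, 1 of 7 in cluster 6, 0 of 5 in cluster 8, 1 of 8 in Macrophages, 0 of 9 in Monocytes and 2 of 9 in Neutrophils. Clusters of 1 library share their preparation, so the clusters are not independent tests of a gene.

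Tlr4 was lower in every mandible library than in every femur library of clusters 0, 1, 2, 5, 6 and 7, and did not pass the threshold in any. In cluster 1 it was at 114, 107 and 103 CPM in femur and 65.5, 76.3 and 66.6 CPM in mandible libraries, a log2 fold change, mandible over femur, of -0.50 ± 0.14 (SE; edgeR, adjusted p = 0.177). In cluster 2 it was at 96.5, 78.4 and 71.9 CPM in femur and 49.98, 57.1 and 52.5 CPM in mandible (-0.58 ± 0.15, edgeR adjusted p = 0.171). In both clusters the highest mandible library was below the lowest femur library. In cluster 5 it was at 58.9, 38.3 and 37.4 CPM in femur and 36.3, 32.0 and 28.2 CPM in mandible (-0.50 ± 0.18, edgeR adjusted p = 0.626). Femur replicate 1, the female library, was the highest there, and without it the log2 fold change was -0.33. Its cluster 5 cells were 15.7% Macrophages by label, against 3.53% to 7.56% in the other libraries, and that label held the highest Tlr4 level. The part of cell mix or sex in the Tlr4 value was not tested.

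The other separations of Tlr4 were at lower levels or in fewer cells. In cluster 0 it was at 31.3, 25.5 and 26.2 CPM in femur and 23.3, 23.2 and 24.0 CPM in mandible (-0.19 ± 0.11, edgeR adjusted p = 0.863), in cluster 7 at 100.4, 87.0 and 60.2 and 51.6, 44.9 and 49.7 CPM (-0.63 ± 0.22, adjusted p = 0.706), and in cluster 6 at 35.3, 29.1 and 30.2 and 20.5, 15.6 and 13.9 CPM (-0.98 ± 0.30, adjusted p = 1.00). Cluster 6 was mostly the cells labelled B cells above (858 of 1009). Its thinned Tlr4 share (1.59% ± 1.35) can therefore not be judged against the B cell share (0.999% ± 0.915), which comes largely from the same cells. It held 39 to 394 cells per library, and the part of free RNA in its separation was not tested. In cluster 3 the sites overlapped, with 39.5 to 50.3 CPM in femur and 37.4 to 49.5 CPM in mandible, as they did in cluster 4. Over all cells Tlr4 was at 50.2, 48.1 and 37.9 and 33.8, 32.0 and 30.1 CPM (-0.53 ± 0.12, edgeR adjusted p = 0.321). In cluster 1 cells thinned to 1000 UMIs, Tlr4 was found in 9.79% ± 0.853 of femur and 6.80% ± 0.756 of mandible cells (SD, n = 3 libraries each). At 2000 UMIs the shares were 17.6% ± 0.403 and 13.1% ± 0.991. That depth left out 1721 femur and 510 mandible cells over all clusters.

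Clec4n was the other receptor that separated repeatedly. In cluster 1 it was at 49.5, 49.8 and 82.8 CPM in femur and 35.1, 44.8 and 25.1 CPM in mandible (-0.66 ± 0.29, edgeR adjusted p = 0.354), in cluster 5 at 16.0, 13.6 and 23.6 and 13.2, 10.8 and 9.56 CPM (-0.75 ± 0.28, adjusted p = 0.658), and over all cells at 10.1, 12.9 and 16.3 and 7.85, 6.60 and 5.26 CPM (-1.05 ± 0.27, adjusted p = 0.356). Femur replicate 3 was the highest library in each, and without it the log2 fold change was -0.34 in cluster 1, -0.36 in cluster 5 and -0.73 over all cells. In clusters 0 and 2 the Clec4n values of the mandible libraries were also below those of femur, but at means under 10 CPM, so they are not read as a difference in expression. Femur and mandible means were 5.37 and 2.06 CPM in cluster 0 and 7.39 and 3.32 CPM in cluster 2, against 0.468 CPM in the B cells pooled. The shares of cells (0.348% ± 0.197 and 0.561% ± 0.224 at 1000 UMIs) were within 1 SD of the B cell share (0.436% ± 0.933), which is too widely spread to tell them apart. With the B cells of all libraries pooled, that share was 0.233%, below the shares of clusters 0 and 2. The part of free RNA in these values was not tested.

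**Figure D3:**
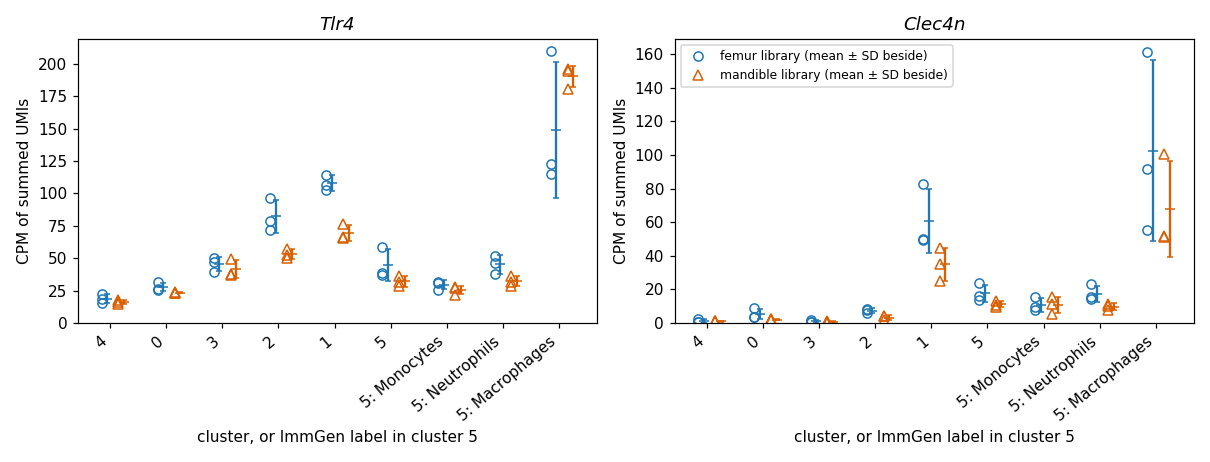
CPM of summed UMIs of Tlr4 and Clec4n per library in clusters 0 to 5 and in the ImmGen labels of cluster 5, with circles for femur and triangles for mandible and the mean ± SD of the 3 libraries of a site. In cluster 1 the mandible libraries of Tlr4 lie at 65.5 to 76.3 CPM, under the femur libraries at 103 to 114 CPM, while in Macrophages the sites overlap for both genes.

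Marker sums of other cell types and stages are given beside these values. The neutrophil list of 10 genes summed to 10243 to 11332 CPM in femur and 13277 to 19277 CPM in mandible libraries of cluster 1, and to 12724 to 16800 and 19436 to 24500 CPM in cluster 2. In cluster 1, Ltf, Ngp, Mmp8 and Ly6g were higher in mandible without overlap, and Csf3r and Cxcr2 (the receptor genes for G-CSF and for CXC chemokines) were lower. The monocyte list of 6 genes summed to 329 to 427 CPM in femur and 516 to 655 CPM in mandible libraries of cluster 1. Of its genes, 1 was higher and 1 lower in mandible without overlap there. Most of this sum was Ly6c2, at a mean of 392 CPM in cluster 1 and of 908 and 1041 CPM in neutrophil clusters 0 and 3. The macrophage list of 6 genes, with 0 of them apart in cluster 1, summed to 81.7 to 121 and 66.7 to 86.9 CPM there and to 632 to 2963 and 474 to 1152 CPM in cluster 5. The tooth and bone list of 9 genes, of which 5 were tested and all 5 were higher in mandible in cluster 1, summed to 3.19 to 3.36 and 27.0 to 59.0 CPM. In cluster 2 the tooth and bone list summed to 2.82 to 4.51 and 27.8 to 83.4 CPM and the monocyte list to 532 to 670 and 755 to 857 CPM. Again 1 gene of the monocyte list was higher and 1 lower in mandible without overlap. In cluster 5, where Clec4d was also apart, the tooth and bone list summed to 10.9 to 21.6 and 113 to 1829 CPM and the B cell list to 20.8 to 32.2 and 35.0 to 70.7 CPM, both without overlap. In cluster 0 the tooth and bone list summed to 3.53 to 3.82 CPM in femur and 18.3 to 36.0 CPM in mandible (5 of 5 tested markers higher in mandible without overlap) and the erythroid list to 18.6 to 26.9 CPM in femur and 50.3 to 216 CPM in mandible (4 of 4). In cluster 7, where Fpr2 was also apart, the tooth and bone list summed to 4.67 to 29.7 CPM in femur and 418 to 1240 CPM in mandible (5 of 5), while the neutrophil sums overlapped. In cluster 4, where Fpr2 was apart, the tooth and bone list summed to 1.32 to 2.20 CPM in femur and 13.4 to 17.1 CPM in mandible (3 of 3), 3 of 10 neutrophil markers were higher in mandible without overlap although their sums overlapped, and 4 of 5 erythroid and 3 of 4 B cell markers had an unadjusted p under 0.05. In cluster 6 the tooth and bone list, none of it tested, summed to 0 to 3.53 CPM in femur and 15.6 to 68.9 CPM in mandible. Over all cells, where DESeq2 called both genes, the erythroid list summed to 168 to 460 and 578 to 1359 CPM, the monocyte list to 987 to 1316 and 1431 to 1546 CPM, the tooth and bone list to 4.13 to 4.73 and 55.9 to 381 CPM, and cluster 1 made up 21.4, 28.2 and 25.4% of the femur and 22.6, 14.9 and 16.7% of the mandible cells. The part of all these differences in the Tlr4, Clec4n, Clec4d and Fpr2 values was not tested.

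Other receptors separated in 1 or 2 clusters. Clec4d in cluster 5 was at 125.86, 149.95 and 145.88 CPM in femur and 114.70, 119.05 and 101.79 CPM in mandible (-0.38 ± 0.16, edgeR adjusted p = 0.687). Fpr2 was higher in mandible in cluster 4, at 121.0, 181.9 and 137.5 CPM against 120.3, 88.8 and 117.4 CPM in femur (0.46 ± 0.18, edgeR adjusted p = 0.327), where the nearest libraries of the sites nearly touched. Without mandible replicate 2 this log2 fold change was 0.25. Fpr2 was also higher in mandible in cluster 7, at 435, 519 and 429 CPM against 378, 320 and 366 CPM (0.48 ± 0.20, edgeR adjusted p = 0.824), and Tlr2 in cluster 4 was apart at means under 10 CPM. In cluster 1 Fpr2 overlapped between sites, as did Tlr2, Cd14, Clec4d, Clec4e, Fpr1 and Trem1, and none of them passed the threshold. Fpr1, Trem1 and Cd14 overlapped between sites in every comparison in which they were tested.

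**Figure D4:**
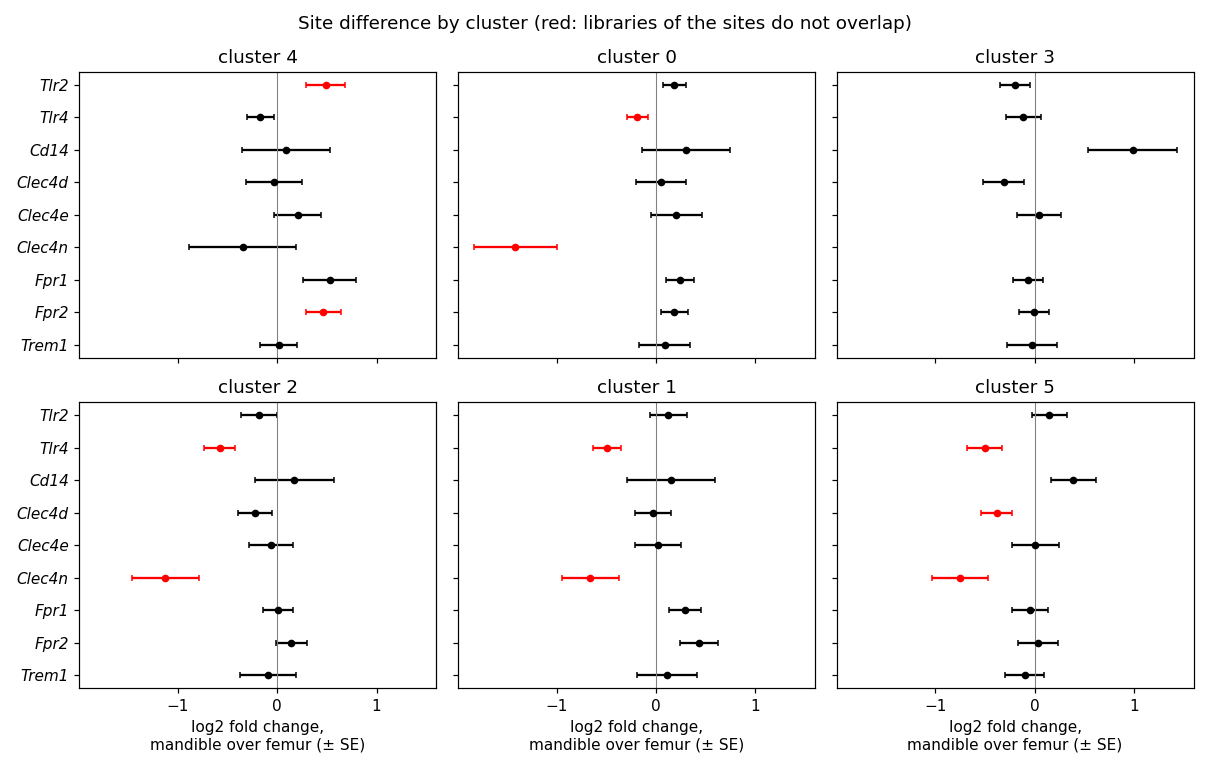
Log2 fold change, mandible over femur, with its SE for each tested receptor gene in clusters 0 to 5 from edgeR, with red marking genes whose femur and mandible libraries did not overlap. Tlr4 and Clec4n lie below 0 without overlap in clusters 0, 1, 2 and 5, where Clec4n in clusters 0 and 2 was at means under 10 CPM, and no value passed a false discovery rate of 0.05.

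Inside cluster 5 the sites were compared by label. In Neutrophils, Tlr4 was at 51.9, 46.5 and 37.5 CPM in femur and 31.6, 36.6 and 28.6 CPM in mandible (-0.44 ± 0.16, edgeR adjusted p = 0.852), and Clec4n at 15.3, 14.3 and 23.0 and 11.5, 7.73 and 10.2 CPM (-0.87 ± 0.27, adjusted p = 0.750; -0.48 without femur replicate 3). In the same label the erythroid list summed to 65.8 to 284 CPM in femur and 1293 to 2183 CPM in mandible (5 of 5 tested markers higher in mandible without overlap) and the tooth and bone list to 2.23 to 8.95 CPM in femur and 20.2 to 2195 CPM in mandible (3 of 4), and their part in the Tlr4 and Clec4n values was not tested. Clec4d, which was apart in cluster 5 as a whole, overlapped between sites in each of the 3 labels, with 309, 312 and 199.5 CPM in femur and 251, 226 and 183 CPM in mandible in Neutrophils, which made up 29.7, 33.1 and 49.7% of the femur and 24.2, 30.7 and 33.7% of the mandible cells of cluster 5. In Monocytes Tlr4 and Clec4n overlapped between sites, with Tlr4 at 25.7 to 32.1 CPM in femur and 21.8 to 28.0 CPM in mandible. In Macrophages Tlr4 was at 209, 122 and 115 CPM in femur and 194, 181 and 196 CPM in mandible, with overlap and with the higher mean in mandible. Clec4e in Macrophages was at 23.5, 23.3 and 48.6 and 13.7, 8.61 and 17.3 CPM without overlap (-1.20 ± 0.47, edgeR adjusted p = 0.693). Beside it, 8 of the 10 neutrophil markers were tested in this label, 1 had a log2 fold change above 0, 1 had an unadjusted p under 0.05 and 0 were without overlap, with a median of -0.64 against -0.02 over all genes. The tooth and bone list summed to 2.44 to 90.5 CPM in femur and 144 to 1405 CPM in mandible, and the 1 marker tested passed the threshold. Of 4 tested erythroid markers, 3 had an unadjusted p under 0.05 and 0 were without overlap, with a median of 1.35. The part of these lists in the Clec4e value was not tested. The Macrophages label held 46 to 167 cells per library, and the difference of the Tlr4 values between labels was not tested.

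Whether the site effect differed between cluster 5 and cluster 1 was tested with limma on the difference of log2 CPM within each library. It called 0% of 10383 genes, and 0 of the 9 receptors had an unadjusted p under 0.05, against 9.57% of all genes. The difference, cluster 5 minus cluster 1, was 0.02 ± 0.19 (SE) for Tlr4, -0.01 ± 0.22 for Clec4n, -0.31 ± 0.22 for Clec4d and -0.36 ± 0.31 for Fpr2.

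The partners of the receptors were followed in 6 gene lists, of which 0 genes passed the false discovery rate of edgeR between sites in any of the 9 clusters. Among 10 other Toll-like receptors, Tlr13 (69.16 ± 13.01 CPM over all cells) and Tlr7 (13.7 ± 1.77 CPM), both sensors of RNA, had the highest counts. In cluster 1, 6 were tested, 0 had an unadjusted p under 0.05 and their median log2 fold change was -0.12, against 0.00 over all genes. Of these 6, 2 were lower in mandible without overlap, against 16.9% of all genes. In cluster 5, 3 of 9 tested had an unadjusted p under 0.05, against 7.11% of all genes, with a median of -0.50. In Monocytes it was 4 of 8, against 1502 of 11364 genes, with a median of -0.61. There 3 were lower and 1 higher without overlap, against 17.8% of all genes in either direction. Of 18 accessory proteins and adaptors, Hsp90b1 (135 ± 14.6 CPM), a chaperone of Toll-like receptors, and Unc93b1 (134 ± 20.8 CPM), which escorts them to endosomes, were highest, and the 16 tested in cluster 1 had a median of -0.04. Ly96, named as the partner of TLR4 after its values were seen, was at 38.1 CPM in cluster 1 and 3.30 CPM in cluster 4, the same order as Tlr4.

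Of 16 other C-type lectin receptors, Clec12a (283 ± 26.0 CPM), an inhibitory receptor, and Clec4a2 (265 ± 25.9 CPM) were highest. Unlike Clec4d and Clec4e, both were lower in cluster 1 (135 and 145 CPM) than in cluster 4 (395 and 332 CPM). In cluster 1, 5 of 12 tested were lower in mandible without overlap, 0 were higher, and the median log2 fold change was -0.39. Of all genes tested in cluster 1, 16.9% were lower and 4.88% higher in mandible without overlap. Clec2d, named after its values were seen, was the 1 gene of the 6 lists that passed in a label of cluster 5. In Monocytes it was at 176, 167 and 175 CPM in femur and 102, 74.1 and 80.2 CPM in mandible (-1.04 ± 0.14, edgeR adjusted p = 0.0423). In the same label, 4 of the 6 macrophage markers were lower in mandible without overlap and 1 of them passed the threshold. The tooth and bone list summed to 0.689 to 1.52 CPM in femur and 14.8 to 32.8 CPM in mandible (2 of 2 tested markers higher without overlap, 1 past the threshold). The monocyte list summed to 6206 to 7216 CPM in femur and 7884 to 8016 CPM in mandible. The part of these lists in the Clec2d value was not tested. With 1 library left out the log2 fold change of Clec2d was -1.19 to -0.96, and the edgeR adjusted p was 0.328, 0.104 and 0.0545 without femur replicates 1, 2 and 3 and 0.00423, 0.133 and 0.216 without mandible replicates 1, 2 and 3, so of these 6 fits 1 kept the call. Without the 5% of cells with the most UMIs the edgeR adjusted p was 0.0521, while it was 0.0481 with RLE factors and 0.0301 with the title numbers as a block, and Clec2d also passed with DESeq2 and without the low-count filter.

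The 11 genes of the Syk and Card9 pathway, led by the adaptors Tyrobp (1951 ± 211 CPM) and Fcer1g (1258 ± 138 CPM), had a median of -0.02 in cluster 1. Tyrobp was at 3620 CPM in cluster 1 and 1021 CPM in cluster 4, the same order as Trem1. Of 6 genes of the TREM family and ligand list, Pglyrp1 (1893 ± 358 CPM), which encodes a peptidoglycan recognition protein, and Trem3 (357 ± 33.5 CPM) were highest, and the 4 tested in cluster 1 had a median of 0.18. Of 13 formyl peptide receptor relatives and coupling genes, Anxa1 (2093 ± 317 CPM), which encodes a ligand of these receptors, and Gnai2 (892 ± 66.9 CPM), a subunit of the G protein they use, were highest, and the 9 tested had a median of 0.18. Anxa1 was at 3374 CPM in cluster 0 and 747 CPM in cluster 1, and Fpr2 was likewise higher in cluster 0.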

How the data were processed

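The authors aligned the reads to mm10 with Cell Ranger (7.0.1 per the labels, 7.1.0 per the file headers) and deposited UMI counts per gene and cell. Their deposited metadata gave the percent of mitochondrial UMIs, cluster, phase and ImmGen label of each cell that passed their Seurat filters. Strand use is not given in the sources used here. No doublet caller was run. The authors' own marker comparisons (fold changes and p-values) were not used.

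Counts of kept cells were summed per library and cluster, or per ImmGen label of cluster 5 with at least 30 cells in every library. Sums were tested with edgeR 4.0.16 (TMM, filterByExpr, Benjamini-Hochberg over all genes tested), which was tested on simulated data, and DESeq2 1.42.0 was an alternative. The difference between clusters 5 and 1 used limma 3.58.1 (prior count 2). Promoter sequences are from RefSeq, where 6 of the 9 measured genes matched. A fold change is given where the libraries of the sites did not overlap and a site's mean was at least 10 CPM. Similar genes are the 3 of highest correlation among genes of at least 10 CPM in a cluster mean, and list genes named are those past the threshold, otherwise the 2 of highest mean CPM. The receptors and lists were chosen with earlier results of these data known.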

Additional observations from a re-analysis of the deposited data

How the results depend on the processing

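The 16 fold changes of receptors whose libraries did not overlap kept their direction in all 192 values recomputed with DESeq2, RLE factors, no low-count filter, each library left out, replicate blocks and without the 5% of cells with the most UMIs. They were selected for not overlapping, which makes a change of direction unlikely, so the kept direction is not a test of them. No receptor passed the threshold with RLE factors, with any library left out or without the top cells. With 1 library left out, the log2 fold change was -0.61 to -0.45 for Tlr4 in cluster 1 and -0.92 to -0.34 for Clec4n there. DESeq2 called 2 receptors over all cells (305 genes in all, 1.68% of those it tested, against 0 with edgeR), and 54, 275, 150 and 77 genes in clusters 0, 1, 2 and 5 (edgeR 2, 9, 4 and 0). Without a filter, 1 receptor passed in cluster 0 (Clec4n), 1 in cluster 1 (Clec4n), 2 in cluster 2 (Clec4n, Tlr4), 1 in cluster 3 (Cd14) and 1 in cluster 4 (Fpr2). Of these, Tlr4 and Clec4n were lower and Cd14 and Fpr2 higher in mandible. In the same clusters 70, 577, 461, 134 and 456 genes were called, or 0.303%, 2.64%, 2.24%, 0.684% and 2.02% of those tested. The cause was not tested.

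Replicate numbers of the titles did not pair the libraries (correlations of deviations -0.40 to 0.61, over 0.1 in 9 of 27), and with them as a replicate block 0 receptors passed. Library numbers 6 and 7 are shared by 4 male libraries, and the labels do not say what they mark (correlations -0.63 to 0.50, over 0.1 in 14 of 18, from 2 pairs). Values under 0 came only from cluster 8, with 11 to 60 cells in these libraries. In clusters 0 to 3 the correlations were 0.29 to 0.50. With this library-number replicate block, which leaves 1 residual degree of freedom, 5 receptors passed in cluster 0 (Clec4n lower in mandible, with Cd14, Clec4e, Fpr1 and Trem1 higher), 7 in cluster 1 (Tlr4 and Clec4n lower, with Tlr2, Cd14, Fpr1, Fpr2 and Trem1 higher), 4 in cluster 2 (Tlr4 and Clec4n lower, with Cd14 and Trem1 higher), 1 in cluster 3 (Cd14 higher), 3 in cluster 4 (Cd14, Fpr1 and Fpr2 higher), 1 in cluster 7 (Clec4n lower) and 3 in Monocytes (Fpr1 lower, with Cd14 and Clec4e higher). In the same order, 573, 1587, 1268, 499, 455, 90 and 814 genes were called in all. These were 4.60%, 14.1%, 12.4%, 5.28%, 3.67%, 1.36% and 7.08% of the genes tested. In cluster 1 this block gave log2 fold changes of 0.71 for Trem1, 0.52 for Cd14 and 0.44 for Tlr2, against 0.11, 0.15 and 0.13 without it.

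Without the top cells, levels moved beyond the spread for Clec4d in cluster 0 (82.4 CPM), Fpr1 and Fpr2 in cluster 5 (55.5 and 136 CPM) and Fpr2 in cluster 6 (73.9 CPM), out of 81 levels. Depth limits Cd14 and Clec4n, which held 10052 and 8224 UMIs in all, and cluster 8 had as few as 11 cells in a library. Intervals and SDs cover these libraries only.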
